A study of Mus musculus with 12 samples.

Results

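The 9 genes described here act on the lipid droplet surface and in droplet formation, and were followed in perigonadal white fat, the visceral depot around the gonads of mice. They were the 5 perilipin genes (Plin1, Plin2, Plin3, Plin4 and Plin5), Cidec, Hilpda, Bscl2 and Fitm2. Members were taken by gene symbol from the RNA-seq count tables, and all 9 were found once each among 53379 Ensembl identifiers. C57BL/6 mice aged 9 weeks formed 4 groups: adipose tissue-specific Cdk7 knockouts given CL (ko CL), control littermates given CL (wt CL), knockouts given saline (ko saline) and control littermates given saline (wt saline). Treatment lasted 7 days, and tissue was frozen after death at zeitgeber time 9. The labels do not spell out what CL is. The abbreviation is in common use for an agonist of the beta-3-adrenergic receptor, which drives lipolysis in adipocytes. Neither the promoter behind the knockout nor the deleted exons are given in the sources used here. A library held pooled RNA of 2 mice, 250 ng from each. With 3 libraries a group, 6 mice stood behind each group, and p-values measure the spread between pools.

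Groups followed the sample titles, because a genotype tag in the labels follows the treatment and contradicts 6 of the 12 titles. Cdk7 itself, a kinase of the transcription factor TFIIH, was checked first: the libraries ranged over 18.1 to 23.6 CPM in ko CL, 30.4 to 35.4 in wt CL, 11.02 to 11.7 in ko saline and 29.3 to 29.98 in wt saline. No ko library overlapped a wt library, and the log2 fold change in ko against wt was -0.68 ± 0.09 under CL (SE, edgeR quasi-likelihood test, adjusted p = 3.64e-05; -0.29 with library size alone as the scaling) and -1.38 ± 0.10 under saline (adjusted p = 6.21e-06). CPM are read counts relative to a library's size after TMM scaling. Depth was 21892817 to 27985019 gene counts a library. All 12 adipocyte markers were detected in every group.

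Fat cells store triglyceride in droplets whose surface is coated by proteins that decide how readily lipases reach the core. Perilipin 1 holds the lipase activator Abhd5 until adrenergic signalling through cyclic AMP releases it, perilipin 2 coats droplets in most cell types and perilipin 5 ties droplets to mitochondria in tissues that burn fat. Cidec enlarges droplets by passing lipid between them, Hilpda inhibits the lipase encoded by Pnpla2, and seipin (Bscl2) and Fitm2 act in the endoplasmic reticulum where droplets form.

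The droplet genes did not move as a block. Under CL, the knockout fat had lower Plin1, Plin4, Plin5, Cidec, Bscl2 and Fitm2 than wt fat and higher Plin3 and Hilpda, whereas Plin2 was not called (-0.03, and 0.36 with library size alone as the scaling). Of the 9 members, 8 were called in that comparison, 2 higher and 6 lower, where 56.8% of all genes tested were called (edgeR quasi-likelihood test, adjusted p under 0.05 over 16554 genes). The members' median log2 fold change was -1.12, against 0.00 over all genes. Within ko fat CL left 4 members higher and 3 lower (54.6% of all genes called), with a median of -0.17 against -0.01. Within wt fat it left 4 higher and 1 lower (36.8% called), with a median of 0.07 against -0.01. Under saline ko fat had 0 members higher and 4 lower than wt fat (14.4% called), with a median of -0.28 against -0.01. The CL response itself differed between the genotypes for 6 members, more positive in ko for 2 and more negative for 4 (45.4% called), with a median difference of -0.43 against -0.03. With so many genes called in most of these comparisons, the shares of members called say little by themselves, and the sizes and directions below carry the description.

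**Figure D1:**
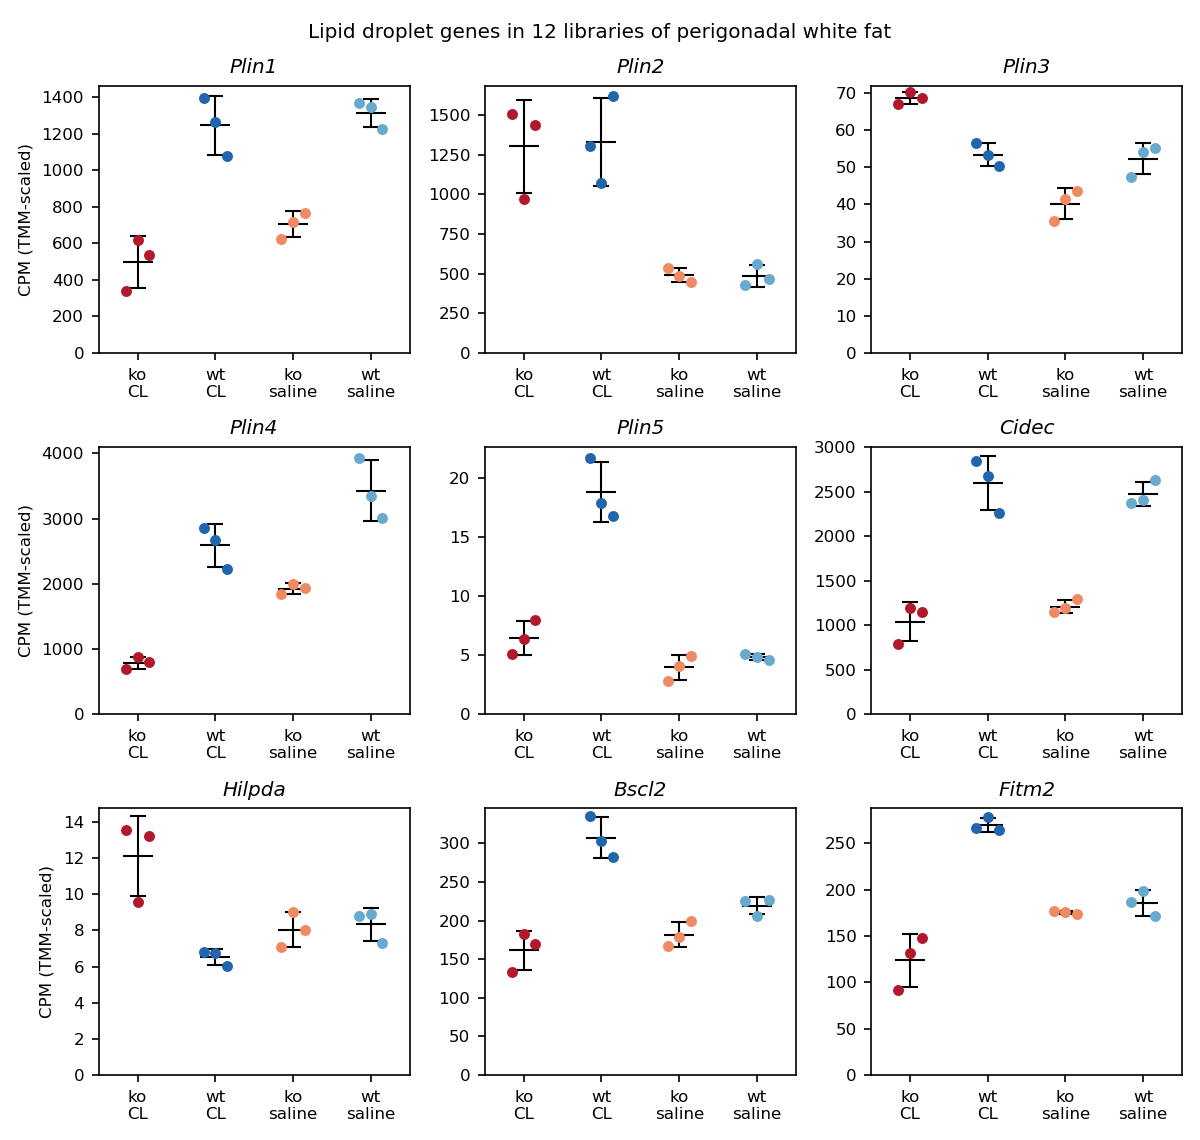
Level of each gene in every library (TMM-scaled CPM, linear axes starting at 0). Points are the 3 libraries of a group in replicate order, and bars give mean ± SD. Plin2 separated by treatment, Cidec and Plin1 by genotype, and Fitm2, Bscl2 and Plin5 were highest in wt CL.

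**Figure D2:**
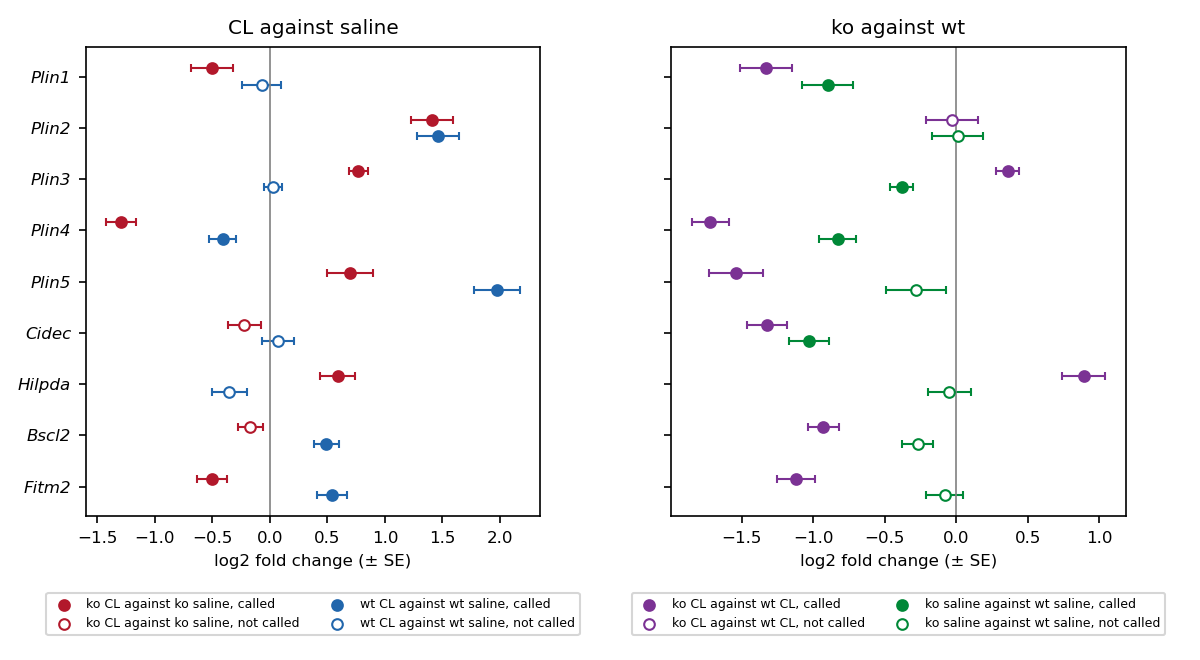
Log2 fold changes with standard errors from the fit to all 12 libraries, for CL against saline in each genotype (left) and for ko against wt under each treatment (right). Filled points were called at adjusted p under 0.05. Plin2 lay to the right of 0 in both genotypes on the left and at 0 on the right. Cidec was not called on the left and lay to the left of 0 under both treatments on the right.

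Per exon length, which is needed to compare levels between genes, Cidec had the highest mean of the 9 in every group. RPKM here are CPM per kilobase of all annotated exons of a gene. In ko CL, Cidec at 560.3 ± 120 RPKM was followed by Plin2 at 372 ± 84 (SD, n = 3). The libraries of this pair overlapped, and in ko CL 1 Plin2 (429 RPKM) stood above Cidec (422.9). They were followed by Plin4 (119 to 151 RPKM) and Plin1 (73.0 to 133) which overlapped each other. Next came Fitm2 (23.2 to 37.2 RPKM) and Bscl2 (22.7 to 30.9), which overlapped too, then Plin3 (18.1 ± 0.40), Hilpda (10.99 ± 2.03) and Plin5 (3.10 ± 0.69). In wt CL Plin5 (8.05 to 10.4 RPKM) passed Hilpda (5.45 to 6.18), which no other group showed, and Plin4 overlapped Plin2. In wt saline the order was Cidec at 1331 ± 74, Plin4 at 594 ± 82, Plin1 at 282 ± 17 and Plin2 at 138 ± 20 RPKM (SD, n = 3), and no neighbours overlapped. Fitm2 (46.8 ± 3.5), Bscl2 (37.2 ± 1.9), Plin3 (13.8 ± 1.1), Hilpda (7.55 ± 0.82) and Plin5 (2.30 ± 0.12) followed there. The 9 genes took 0.426 ± 0.036% of all gene counts in ko CL and 0.687 ± 0.054% in wt CL, against 0.536 ± 0.026% in ko saline and 0.830 ± 0.054% in wt saline (SD, n = 3 each). These shares carry no TMM scaling. With it, the members' summed RPKM was 1270 ± 130 in ko CL and 2640 ± 210 in wt CL, against 1370 ± 55 in ko saline and 2450 ± 28 in wt saline.

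Plin1 (ENSMUSG00000030546, GRCm38 chromosome 7, 79720218 to 79732903, minus strand) encodes the main droplet coat of white adipocytes and the gatekeeper of hormone-driven lipolysis. Its libraries were at 339.5, 619.9 and 534 CPM in ko CL and at 1398, 1266 and 1078 CPM in wt CL. Under saline they were at 626, 719.9 and 767 CPM in ko and at 1367, 1346 and 1224 CPM in wt. Every ko library lay below every wt library under the same treatment. Plin1 was lower in ko by a log2 fold change of -1.33 ± 0.18 under CL (SE, adjusted p = 3.15e-05) and of -0.90 ± 0.18 under saline (adjusted p = 0.00643). CL left it lower in ko fat (-0.50 ± 0.18, adjusted p = 0.0279) and was not called in wt fat (-0.07 ± 0.17, adjusted p = 0.774). That fall in ko was -0.31 and called without ko CL 1. It lost its call, at much the same size, without ko saline 2 (-0.51, adjusted p = 0.0564), without ko saline 3 (-0.47, adjusted p = 0.0741) and with only the 6 ko libraries in the fit (-0.51, adjusted p = 0.0706). The difference of the CL responses was -0.43 ± 0.25 and not called (adjusted p = 0.181), but without ko CL 2 it was -0.62 and called (adjusted p = 0.0456).

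Cidec (ENSMUSG00000030278, chromosome 6, 113424634 to 113435760, minus strand), the droplet fusion gene also known as Fsp27, had the same genotype pattern. Libraries were at 785, 1191 and 1144 CPM in ko CL and 2849, 2676 and 2260.0 CPM in wt CL, with 1144, 1187 and 1296 CPM in ko saline and 2375, 2410.2 and 2628 CPM in wt saline. All 6 ko libraries lay below all 6 wt libraries, and the treatments overlapped within each genotype. Cidec was 2.50-fold lower in ko under CL (log2 fold change -1.32 ± 0.14, adjusted p = 4.81e-06) and 2.04-fold lower under saline (-1.03 ± 0.14, adjusted p = 8.83e-04). CL was not called in ko (-0.22 ± 0.14, adjusted p = 0.21) or in wt (0.07 ± 0.14, adjusted p = 0.73), nor was the difference of the responses (-0.29 ± 0.20, adjusted p = 0.262).

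Because Plin1 and Cidec were low together in ko fat, their promoter windows are shown for comparison (RefSeq, GRCm38.p6, minus strand, 250 bases before to 50 after the annotated start, at chr7:79732727-79733026 for Plin1 and chr6:113435711-113436010 for the first of the 2 RefSeq starts of Cidec). Capitals would mark a match to any of 9 motifs, and neither window has one.
Plin1: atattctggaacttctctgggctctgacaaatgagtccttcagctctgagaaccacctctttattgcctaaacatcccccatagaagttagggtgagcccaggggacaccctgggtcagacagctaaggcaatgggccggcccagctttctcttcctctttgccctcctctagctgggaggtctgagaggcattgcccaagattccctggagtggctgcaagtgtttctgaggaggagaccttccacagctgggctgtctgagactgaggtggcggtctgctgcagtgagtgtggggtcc
Cidec: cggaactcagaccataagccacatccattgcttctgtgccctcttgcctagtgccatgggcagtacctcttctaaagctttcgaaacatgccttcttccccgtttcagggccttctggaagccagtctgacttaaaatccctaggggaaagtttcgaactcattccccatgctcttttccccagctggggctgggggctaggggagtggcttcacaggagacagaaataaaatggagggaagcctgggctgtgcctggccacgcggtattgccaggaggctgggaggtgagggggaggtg
The motifs were searched on both strands: AGGTCA, the half-site of nuclear receptors such as PPARs, alone and as a direct repeat with 1 base between the copies, the hypoxia-response core ACGTG, the E-box CACGTG (which contains ACGTG), the cyclic AMP response element TGACGTCA and its core TGACG, the GC box GGGCGG, the CCAAT box and the TATA box TATAAA. Of 32817 RefSeq promoter windows of the same length, 16.3% hold AGGTCA, 0.0396% the direct repeat, 19.6% ACGTG, 7.15% CACGTG, 1.79% TGACGTCA, 20.8% TGACG, 35.6% GGGCGG, 37.4% CCAAT and 13.6% TATAAA. The direct repeat, TGACGTCA and TATAAA were in 0 of the 14 windows of the 9 members.

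Plin4 (ENSMUSG00000002831, chromosome 17, 56100591 to 56109803, minus strand), a perilipin most abundant in white adipocytes, carried the largest genotype difference of the 9 under CL. Libraries were at 689.5, 872 and 797 CPM in ko CL and 2857, 2678 and 2227 CPM in wt CL. Under saline they were at 1842, 2003 and 1928 CPM in ko and 3936, 3346 and 3004 CPM in wt. No pair of the 4 groups overlapped, and wt CL and wt saline came closest. Plin4 was 3.29-fold lower in ko under CL (-1.72 ± 0.13, adjusted p = 1.65e-07) and 1.78-fold lower under saline (-0.83 ± 0.13, adjusted p = 0.00142). CL lowered it in ko by a log2 fold change of -1.29 ± 0.13 (adjusted p = 2.52e-06) and in wt by -0.41 ± 0.12 (adjusted p = 0.0215), the second of which lost its call without wt saline 1 (-0.31, adjusted p = 0.0946) or wt CL 3 (-0.31, adjusted p = 0.0981) and was -0.72 with library size alone. The response was more negative in ko by -0.89 ± 0.18 (adjusted p = 0.00126).

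Plin5 (ENSMUSG00000011305, chromosome 17, 56111601 to 56117596, minus strand) lies 1797 bp from Plin4 on the same strand and moved the other way under CL. It was the least abundant perilipin in every group, with 77 to 388 reads a library. Its levels were 5.09, 6.35 and 7.98 CPM in ko CL and 21.7, 17.9 and 16.8 CPM in wt CL. Under saline it was at 2.79, 4.10 and 4.95 CPM in ko and 5.05, 4.80 and 4.55 CPM in wt. The wt CL libraries stood above all the others, while under saline the genotypes overlapped. CL raised Plin5 3.91-fold in wt (1.97 ± 0.20, adjusted p = 1.28e-05) and 1.63-fold in ko (0.70 ± 0.20, adjusted p = 0.00988), and the response was smaller in ko by -1.27 ± 0.28 (adjusted p = 0.00264). The rise in ko lost its call without ko saline 1 (0.48, adjusted p = 0.053) or ko CL 3 (0.50, adjusted p = 0.0651). Plin5 was 2.91-fold lower in ko than in wt under CL (-1.54 ± 0.19, adjusted p = 1.72e-05) and not called under saline (-0.28 ± 0.21, adjusted p = 0.405).

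Plin2 (ENSMUSG00000028494, chromosome 4, 86648386 to 86670060, minus strand), the coat protein of droplets in most cells, including lipid-filled macrophages, separated by treatment. Libraries were at 1506, 968 and 1439 CPM in ko CL and 1306, 1069 and 1623 CPM in wt CL, against 537, 486 and 448 CPM in ko saline and 428, 564 and 464 CPM in wt saline. All 6 CL libraries lay above all 6 saline libraries, and the genotypes overlapped under both treatments. CL raised Plin2 2.66-fold in ko (1.41 ± 0.18, adjusted p = 2.79e-05) and 2.74-fold in wt (1.46 ± 0.18, adjusted p = 6.04e-05), with a difference of responses of -0.05 ± 0.25 (adjusted p = 0.9). Between genotypes it was at -0.03 ± 0.18 under CL (adjusted p = 0.893) and 0.01 ± 0.18 under saline (adjusted p = 0.971), so that differences of a size within these errors were not detectable.

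AGGTCA, held by 16.3% of all windows, was found in windows of Plin2, Plin5 and Bscl2 and of no other member. Windows of Plin2, Plin5 and its neighbour Plin4 are shown, whatever their CL response. The windows are given with matches in capitals, on the strand of the gene (all minus), at chr4:86670010-86670309 for Plin2, chr17:56117499-56117798 for the first of 2 RefSeq starts of Plin5 and chr17:56109733-56110032 for Plin4.
Plin2: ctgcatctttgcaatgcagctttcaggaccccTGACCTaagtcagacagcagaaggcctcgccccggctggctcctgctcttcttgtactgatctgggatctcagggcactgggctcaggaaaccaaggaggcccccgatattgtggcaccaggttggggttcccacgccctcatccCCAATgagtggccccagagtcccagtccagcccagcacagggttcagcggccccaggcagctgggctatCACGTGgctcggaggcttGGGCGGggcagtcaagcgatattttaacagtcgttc
Plin5: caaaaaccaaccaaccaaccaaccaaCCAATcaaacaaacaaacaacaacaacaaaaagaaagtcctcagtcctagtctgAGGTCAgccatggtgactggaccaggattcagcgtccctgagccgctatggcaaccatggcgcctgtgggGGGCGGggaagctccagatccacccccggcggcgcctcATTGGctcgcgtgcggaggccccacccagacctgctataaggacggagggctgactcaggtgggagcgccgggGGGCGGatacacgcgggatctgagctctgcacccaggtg
Plin4: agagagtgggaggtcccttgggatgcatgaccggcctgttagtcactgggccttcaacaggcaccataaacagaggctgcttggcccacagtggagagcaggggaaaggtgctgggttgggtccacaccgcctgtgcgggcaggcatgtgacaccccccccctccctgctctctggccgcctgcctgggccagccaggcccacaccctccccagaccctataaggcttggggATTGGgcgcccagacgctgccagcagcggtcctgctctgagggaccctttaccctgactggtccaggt
In Plin2 the half-site is on the reverse strand and reads TGACCT at position -218 from the start, with CACGTG at -4, and in Plin5 AGGTCA is at -170, counting the start as 0. The second Plin5 window also holds AGGTCA, as does 1 of the 3 windows of Bscl2. These are matches of letters in a window, and no binding was measured.

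Plin3 (ENSMUSG00000024197, chromosome 17, 56277476 to 56292873, minus strand) encodes a perilipin found in nearly all cells, partly free in the cytosol. Levels were 67.1, 70.2 and 68.6 CPM in ko CL, 56.6, 53.4 and 50.3 CPM in wt CL, 35.6, 41.5 and 43.5 CPM in ko saline and 47.5, 54.2 and 55.1 CPM in wt saline. The ko CL libraries were above all others and the ko saline libraries below all others, with both wt groups overlapping in between. CL raised Plin3 1.71-fold in ko (0.77 ± 0.08, adjusted p = 5.30e-06) and was not called in wt (0.03 ± 0.08, adjusted p = 0.795), where library size alone gave a called fall (-0.28, adjusted p = 0.0124). The responses differed by 0.74 ± 0.12 (adjusted p = 2.33e-04). The genotype difference was 0.36 ± 0.08 under CL (adjusted p = 0.0021; 0.75 with library size alone) and -0.38 ± 0.08 under saline (adjusted p = 0.0107). The saline difference lost its call without wt saline 3 (-0.34, adjusted p = 0.0528) and with library size alone as the scaling (-0.22, adjusted p = 0.0707).

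Hilpda (ENSMUSG00000043421, chromosome 6, 29272488 to 29275446, plus strand), a small hypoxia-inducible droplet protein that slows triglyceride breakdown, was highest in ko CL. It had 118 to 392 reads a library. Libraries were at 13.6, 9.55 and 13.2 CPM in ko CL and 6.82, 6.74 and 6.01 CPM in wt CL, with 7.07, 9.01 and 8.01 CPM in ko saline and 8.77, 8.93 and 7.29 CPM in wt saline. No ko CL library overlapped another group, although ko CL 2 came close to the highest saline libraries. CL raised Hilpda 1.51-fold in ko (0.59 ± 0.15, adjusted p = 0.00395), and it was 1.86-fold higher in ko than in wt under CL (0.89 ± 0.15, adjusted p = 2.23e-04). In wt fat the CL value was -0.35 ± 0.15 and not called (adjusted p = 0.0883), though all wt CL libraries lay below all wt saline libraries and the fall was called with only these 6 libraries in the fit (adjusted p = 0.0327), without ko CL 2 (adjusted p = 0.0348) and with library size alone (-0.67, adjusted p = 0.00315). The responses differed by 0.95 ± 0.21 (adjusted p = 0.00274). Both of its RefSeq windows hold TGACG (at -108 in the first, at -246 and -68 in the second) and GGGCGG (at -154 and at 26), and the second holds ACGTG at -43.

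Bscl2 and Fitm2, which act where droplets bud from the endoplasmic reticulum, were both highest in wt CL, where no library overlapped another group. Bscl2 (ENSMUSG00000071657, chromosome 19, 8837467 to 8848683, plus strand) was at 134, 182 and 169 CPM in ko CL and 336, 304 and 283 CPM in wt CL, against 167, 178 and 199.8 CPM in ko saline and 225, 206 and 227 CPM in wt saline. CL raised it 1.40-fold in wt (0.49 ± 0.11, adjusted p = 0.00388) and was not called in ko (-0.17 ± 0.11, adjusted p = 0.21). The responses differed by -0.66 ± 0.16 (adjusted p = 0.00393), and Bscl2 was 1.90-fold lower in ko under CL (-0.93 ± 0.11, adjusted p = 1.11e-05). Under saline all ko libraries lay below all wt libraries, but the difference was not called (-0.27 ± 0.11, adjusted p = 0.118), except without ko CL 1 (adjusted p = 0.0408). Exons of Bscl2 overlap those of Gng3 on the opposite strand over 398 bp and those of AC129217.1 on the same strand over 239 bp, a gene for which no counts were used here.

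Fitm2 (ENSMUSG00000048486, chromosome 2, 163466379 to 163472629, minus strand) was at 92.2, 132 and 148 CPM in ko CL and 266, 279 and 264 CPM in wt CL, against 177, 176 and 173 CPM in ko saline and 187, 199 and 172 CPM in wt saline. It responded in opposite directions: CL raised it 1.45-fold in wt (0.54 ± 0.13, adjusted p = 0.00537) and left it 1.42-fold lower in ko (-0.50 ± 0.13, adjusted p = 0.00501). The difference of the responses was -1.04 ± 0.18 (adjusted p = 4.87e-04). Fitm2 was 2.18-fold lower in ko under CL (-1.12 ± 0.13, adjusted p = 8.12e-06) and not called under saline (-0.08 ± 0.13, adjusted p = 0.72), where the libraries overlapped. In wt the rises of Bscl2 and Fitm2 depended on the scaling. With library size alone, which moved the median of all genes in that comparison to -0.33, they were at 0.17 and 0.22 and not called. In ko CL against wt CL they were then at -0.54 and -0.74 and still called, and the response difference of Bscl2 was -0.43.

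The make-up of the perilipin family was compared within libraries, where the scaling between libraries cancels. Plin2 made up 58.0 ± 9.9% of the summed perilipin RPKM in ko CL and 33.9 ± 7.1% in wt CL, against 22 ± 2.5% in ko saline and 13.5 ± 2.3% in wt saline (SD, n = 3 each). Plin4 made up 21.6 ± 3.9% in ko CL and 40.0 ± 4.5% in wt CL, against 52.3 ± 0.73% in ko saline and 57.5 ± 3.3% in wt saline. Neither share overlapped between any 2 groups, so Plin2 was the leading perilipin message in every ko CL library, Plin4 in every saline library, and in wt CL Plin4 led in 1 and 2 and Plin2 in 3. Plin2 over Plin1, per length, was 2.07 to 5.87 in ko CL and 1.12 to 1.99 in wt CL, against 0.773 to 1.14 in ko saline and 0.415 to 0.555 in wt saline. The summed perilipin RPKM was 636 ± 52 in ko CL and 1120 ± 67 in wt CL, against 637 ± 18 in ko saline and 1030 ± 91 in wt saline (SD, n = 3 each). In ko fat the sums of the treatments overlapped.

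**Figure D3:**
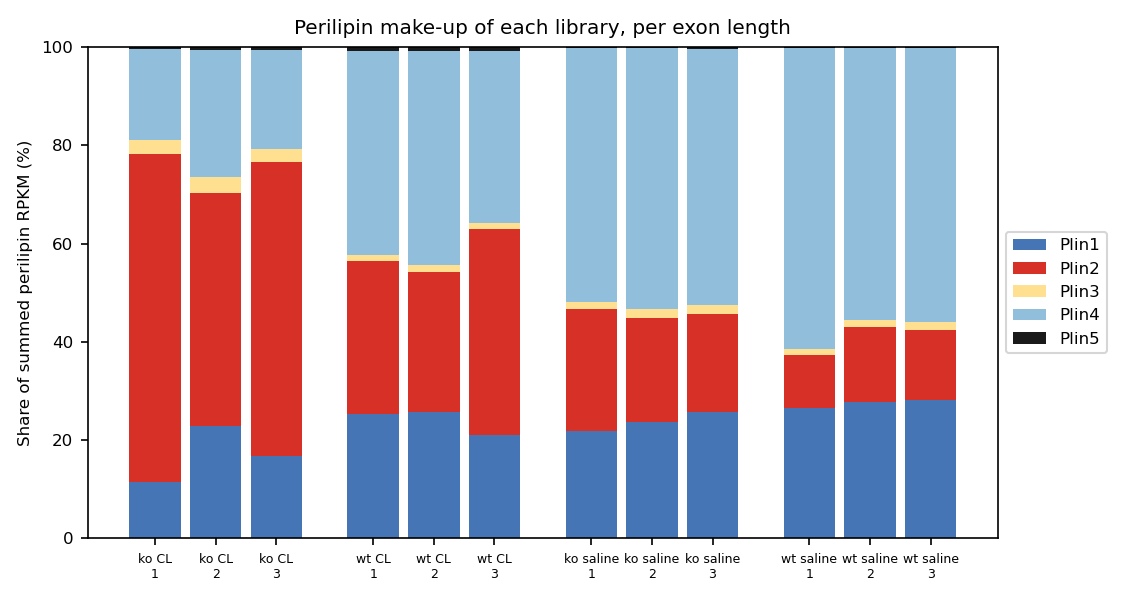
Share of each perilipin in the summed perilipin RPKM of each library, in percent, with 1 bar a library. The Plin2 segment took 47.4% to 66.9% in ko CL and 11% to 15.4% in wt saline, and Plin4 took 18.6% to 26% in ko CL and 55.4% to 61.2% in wt saline.

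Adipocyte and macrophage markers moved with these changes. In bulk tissue, fewer cells of a type and less RNA per cell cannot be told apart. The 12 adipocyte markers summed to 11677 to 19307 CPM in ko CL and 48828 to 52280 in wt CL, against 23888 to 26418 in ko saline and 43653 to 49403 in wt saline. All 12 were lower in ko than in wt under CL (median -1.69), and 9 of 12 under saline (median -0.77). These stood beside the falls of Plin1, Plin4 and Cidec. Adipoq was not called under saline (0.02), with means of 3371 CPM in ko and 3334 in wt, and Lep had means of 1155 and 1203 CPM. Car3 was the largest part of the saline sums, with means of 9131 CPM in ko and 21892 in wt. Over all genes tested, 29.3% were lower in ko under CL and 6.45% under saline. The 13 macrophage markers summed to 9081 to 12468 CPM in ko CL, 938 to 1114 in wt CL, 1677 to 1752 in ko saline and 1719 to 1802 in wt saline. In ko CL against wt CL 12 of 13 were higher and 1 lower, with a median of 2.98, beside the higher Plin3 and Hilpda. In that comparison 27.6% of all genes were higher and 29.3% lower. The 9 lipid-associated macrophage markers summed to 5782 to 8923 CPM in ko CL, 1349 to 1484 in wt CL, 423 to 462 in ko saline and 458 to 610.2 in wt saline. Within wt, Fabp5, which adipocytes also express, was the 1 of these called under CL (1.88). In wt CL Fabp5 had a mean of 1245 CPM, where the sum had a mean of 1425. In ko CL against wt CL 8 of the 9 were higher and 1, Fabp5, was lower (-0.94). In wt fat 11 of 13 macrophage markers were lower under CL and 0 higher, where 17.1% of all genes were lower and 19.6% higher. Plin3 (0.03) and Hilpda (-0.35) were not called there. Under saline 0 of 13 were higher and 0 lower in ko than in wt (7.99% and 6.45% of all genes). Plin3 was lower in ko there (-0.38), and Hilpda was not called (-0.05). Within ko CL, library 1 had the lowest adipocyte sum and the highest macrophage sum, and also the lowest Plin1, Plin4, Cidec, Bscl2 and Fitm2 and the highest Plin2 and Hilpda of the 3. Library 2 had the highest adipocyte sum, Plin1, Plin4, Cidec and Bscl2 and the lowest macrophage sum, Plin2 and Hilpda. Fitm2 and Plin5 were instead highest in library 3, at 148 and 7.98 CPM, and Plin5 was lowest in library 1 at 5.09 CPM. Plin3 ran the other way within ko CL, lowest in library 1 at 67.1 CPM and highest in library 2 at 70.2 CPM. The part of cell make-up in the members' changes was not tested.

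**Figure D4:**
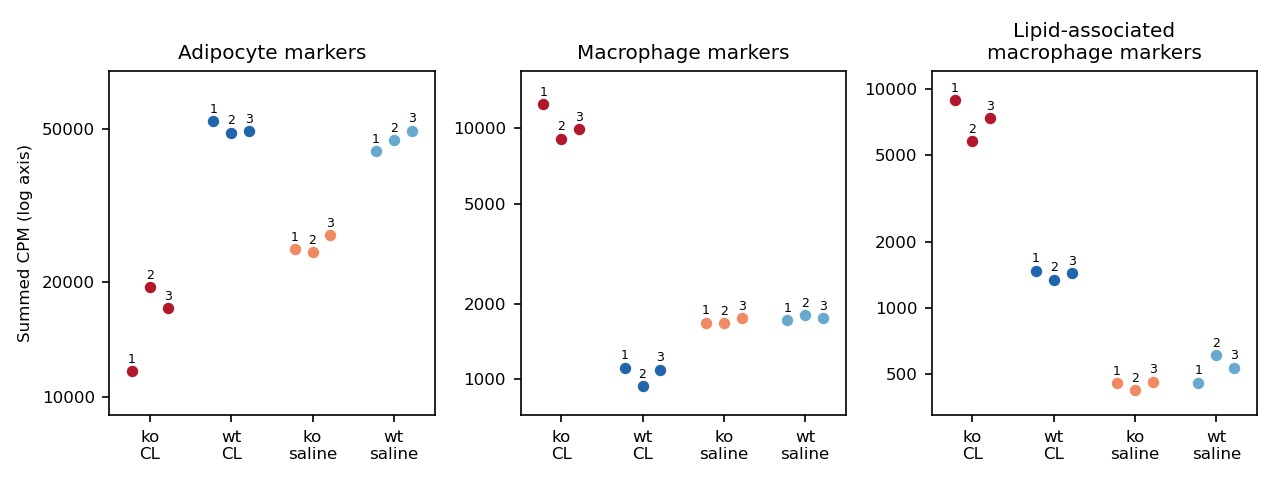
Summed CPM of the adipocyte, macrophage and lipid-associated macrophage marker lists in each library (log axes), with replicate numbers above the points. The ko CL libraries were lowest for adipocyte markers, at 11677 to 19307 CPM, and highest for both macrophage lists.

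Other cell types were present at differing levels. Endothelial markers summed to 577 to 738 CPM in ko CL and 1275 to 1592 in wt CL, against 961 to 1019 in ko saline and 1055 to 1090 in wt saline. Progenitor markers summed to 3952 to 4952 CPM in ko CL, 1543 to 1904 in wt CL, 1935 to 2725 in ko saline and 2304 to 2513 in wt saline. Ciliated epithelium markers summed to 5.69 to 11.15 CPM in ko CL and 4.401 to 6.09 in wt CL, against 66.95 to 92.63 in ko saline and 2.88 to 32.8 in wt saline, so that ko saline stood apart. Their part in the members' values was not tested. Mesothelial markers summed to 152 to 199.3 CPM in ko CL and 118.6 to 143 in wt CL, against 197.5 to 310.1 in ko saline and 259 to 326 in wt saline. Markers of skeletal muscle, in which Plin5 is also abundant, summed to 5.01 to 6.77 CPM in ko CL and 2.04 to 3.13 in wt CL, against 9.83 to 18.9 in ko saline and 28.5 to 70.85 in wt saline. Lymphocyte markers summed to 3.29 to 15.4 CPM over all libraries. In wt saline the muscle sum had a mean of 45.55 CPM, of which Acta1 held 43.5. The part of muscle in the Plin5 values was not tested.

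Of 29 further genes of droplet formation, coating and lipolysis, 27 passed the filter on low counts. In ko CL against wt CL 5 of 27 were higher and 17 lower (median -0.89), where 27.6% of all genes were higher and 29.3% lower. Dgat2 (-1.84 ± 0.13, adjusted p = 1.39e-07), the last enzyme of triglyceride synthesis, Agpat2 (-2.23 ± 0.18, adjusted p = 4.35e-07), which makes its phosphatidic acid precursor, the droplet hydrolase gene Ldah (-0.70 ± 0.06, adjusted p = 6.14e-07) and the monoglyceride lipase gene Mgll (-0.94 ± 0.08, adjusted p = 8.79e-07) had the smallest adjusted p. Within wt fat CL left 13 higher and 3 lower (median 0.26), where 19.6% of all genes were higher and 17.1% lower. The smallest adjusted p belonged to Acsl3 (1.89), an acyl-CoA synthetase of budding droplets, Abhd5 (1.11), Agpat2 (2.84-fold) and Cidea (3.39), the Cidec relative of brown fat. Within ko fat 8 were higher and 11 lower (median -0.05), where 27.2% of all genes were higher and 27.5% lower, and the smallest adjusted p belonged to the caveolar coat genes Cav1 (-1.05) and Cavin1 (-0.77), to Mgll (-0.85) and to Dgat1 (-0.82). Under saline 3 were higher and 7 lower in ko than in wt (median -0.01), where 7.99% of all genes were higher and 6.45% lower. Lipe, the hormone-sensitive lipase gene, was at -0.93, G0s2, an inhibitor of the same lipase as Hilpda, at -1.28, Dgat2 at -0.95 and Clstn3, whose locus also encodes a droplet protein of brown adipocytes, at -2.29. The CL response was more positive in ko for 4 and more negative for 16 (median -0.53), with Mgll at -1.25, Acsl3 at -1.58, Dgat1 at -1.26 and Abhd5 at -1.13. Over all genes tested, 21.8% had a more positive and 23.6% a more negative response.

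**Figure D5:**
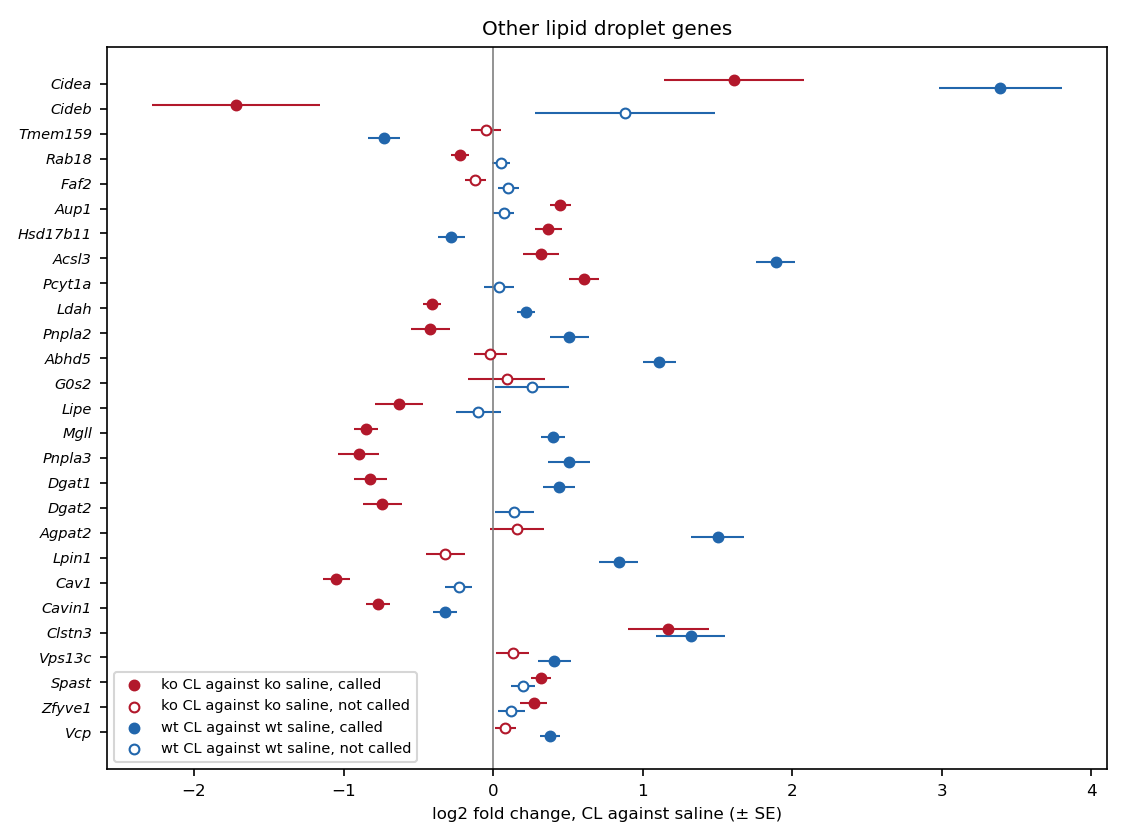
Log2 fold changes of CL against saline with standard errors for 27 further lipid droplet genes, in ko and in wt fat, in list order. Filled points were called. Acsl3, Abhd5 and Agpat2 stood at 1.11 to 1.89 in wt and at -0.02 to 0.32 in ko. Cidea (3.39 in wt, 1.61 in ko) and Clstn3 (1.32 in wt, 1.17 in ko) were called higher in both.

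For each member the closest profiles were sought among 10670 protein-coding genes with a mean of at least 5 CPM, as the smallest root mean square difference between centred log2 CPM over the 12 libraries. Plin1 lay closest to Lipe (0.077 on the log2 scale), followed by Aatk (0.143) and Gpt (0.159), where Plin1 itself varied with a root mean square of 0.63. Cidec lay closest to Mknk2 (0.092), Vegfa (0.139) and Aatk (0.166). Plin4 was close to Klhl2 (0.194), Pfkfb3 (0.204) and the adipocyte receptor gene Acvr1c (0.205). Plin5 had Acadvl (0.232), the first enzyme of very-long-chain fatty acid oxidation, Mvd (0.234) and the carnitine carrier gene Slc25a20 (0.236) nearest, all highest in wt CL. Fitm2 had Dbt (0.091), Rflnb (0.098) and Higd1a (0.111), and Bscl2 had Ppargc1b (0.093), Sod1 (0.095) and Ndufv3 (0.097). Plin3 had Plxnd1 (0.077), Pitpnm1 (0.088) and Dpp3 (0.089), and Hilpda had Sept8 (0.103), Ptgfrn (0.121) and Itpripl1 (0.122). The closest genes to Plin2 were Rassf3 (0.203), Slfn9 (0.228) and Mad2l1 (0.241). The members' median distance to all candidates was 0.36 to 0.91, and all profiles share the same libraries.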

How the data were processed

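RNA-seq was made from perigonadal white fat. The authors deposited raw counts per Ensembl gene, made with STAR and HTSeq on GRCm38 per the submitters' processing notes, with reverse-strand counting per the file names. Versions, like the annotation release, were not given in the sources used here. HTSeq's 5 summary lines held 12.5% to 17.2% of reads and were left out. Symbols, coordinates and exon lengths came from GENCODE M21, which matched 53274 of 53379 identifiers, and promoter windows from RefSeq (GRCm38.p6). HTSeq drops reads shared by overlapping genes or by several places.

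Counts were tested with edgeR 4.0.16 (R 4.3.3): filterByExpr with a minimum count of 10 kept 16554 genes, including all 9 members, TMM scaled the libraries, and the quasi-likelihood test used 1 mean per group over 12 libraries with 8 residual degrees of freedom and a common coefficient of variation of 11.5%. P-values were adjusted by Benjamini-Hochberg over all genes tested and called at 0.05. Standard errors are the absolute log2 fold change over the root of F. The gene test was checked on simulated counts. Within groups, 12 library pairs differed by a chi-square of 6.96 to 55.5 per degree of freedom, so none was a repeat.

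Members and lists were chosen with earlier results of these data known. All members, up to 4 genes of each further list by adjusted p, and the 3 closest profiles per member (prior count 2) were named by rule, except 1 gene that is not reported here. Clstn3 reads cannot be split by isoform. Alternatives were RLE scaling, library size alone, DESeq2 1.42.0, no filter, a minimum count of 50, only the groups compared, a replicate block and leaving out each library.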

Additional observations from a re-analysis of the deposited data

Results flagged for a closer look

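The response to CL differed between the genotypes, by the test of the difference itself, for 6 of the 9 genes. It did so for 45.4% of all genes tested, so the count by itself says little about the members. Of the 2 with a more positive response in ko, Plin3 differed by 0.74 and Hilpda by 0.95 on the log2 scale. The other 4 responded more negatively in ko: Plin4 differed by -0.89, Plin5 by -1.27, Bscl2 by -0.66 and Fitm2 by -1.04. Leaving out any library kept all 6 calls. With 3 libraries a group, single libraries were not tested for standing apart.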

How the results depend on the processing

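Of 306 values of the members under other settings, 293 kept their direction and their side of the threshold, 4 lost a call, 2 gained one and 7 turned direction, none of them called before. Library size alone gave 6 of the 7: in wt under CL Plin3 (-0.28, adjusted p = 0.0124) and Cidec (-0.24), in ko against wt Plin2 under CL (0.36) and Hilpda (0.10) and Fitm2 (0.07) under saline, and Plin2 in the difference of responses (0.18). The cause was not tested. That scaling moved the median of all genes to -0.33 in wt under CL, 0.39 in ko CL against wt CL, 0.15 in ko saline against wt saline and 0.20 in the difference of responses. It also took Plin4 in wt to -0.72, Plin3 in ko CL against wt CL to 0.75, Bscl2 and Fitm2 there to -0.54 and -0.74, and the response difference of Bscl2 to -0.43. Cdk7 in ko CL against wt CL was then at -0.29. It called 9377 genes in wt under CL (1329 higher, 8048 lower), against 6085 with TMM (3249 and 2836), and 4239 in ko saline against wt saline (3733 and 506), against 2391 (1323 and 1068). The split was 8667 higher and 2237 lower in ko CL against wt CL, against 4561 and 4847, 3701 and 5475 in ko under CL, against 4497 and 4546, and 5386 and 2267 in the difference of responses, against 3607 and 3903. The 10 most abundant genes held 23.5% to 24.4% of counts in wt CL and 15.1% to 16.9% in wt saline. The seventh was Plin3 in wt with no filter on low counts (-0.01). With 1 library left out, 516 of 540 values kept direction and call. Values that turned direction, none of them called before, spanned -0.05 to 0.07 for Plin3, -0.00 to 0.16 for Cidec and -0.16 to 0.02 for Plin1 in wt under CL, -0.17 to 0.14 for Plin2 in ko CL against wt CL, -0.06 to 0.13 for Plin2 and -0.14 to 0.04 for Hilpda in ko saline against wt saline, and -0.18 to 0.12 for Plin2 in the difference of responses. Same-numbered libraries of different groups did not deviate together (correlations of -0.434 to 0.187 over 18 pairs, 3 above 0.1), 0 of 12 libraries lay closest to its own number, and the fit with the replicate number as a block called the same number of members in each comparison (7, 5, 8, 4 and 6). Plin5 and Hilpda, with the fewest reads, are the members that depth limits most.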

Other observations

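Genes that share regulators with droplet proteins in textbook accounts were listed alongside. PPAR targets other than the members rose in wt fat under CL for 11 of 18 genes and fell for 1 (median 0.97), where 19.6% of all genes rose and 17.1% fell, with Pdk4, a brake on pyruvate oxidation, at 2.29, Slc25a20 at 1.79, Hadha of mitochondrial beta-oxidation at 1.58 and Cpt2 at 1.56. In ko fat 5 rose and 8 fell (median -0.23; 27.2% and 27.5% of all genes), with the glyceroneogenic enzyme gene Pck1 at -1.80, the glycerol channel gene Aqp7 at -1.01 and Angptl4 at -0.92. Between genotypes under CL 2 were higher and 15 lower in ko (median -1.20; 27.6% and 29.3% of all genes), and under saline 0 were higher and 3 lower (7.99% and 6.45% of all genes), namely Pck1 (-0.99), Fabp4 (-0.71) and Lpl (-0.38). The response was more positive in ko for 2 and more negative for 14 (median -1.14; 21.8% and 23.6% of all genes), with Pdk4 at -2.64.

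Hypoxia-induced genes were listed because Hilpda is one. In ko fat under CL 5 of 18 rose and 5 fell (median 0.01), where 27.2% of all genes rose and 27.5% fell, with the glycolytic regulator gene Pfkfb4 at 1.63 and its relative Pfkfb3 at -1.30, Bnip3 at -1.20 and Egln1 at -0.58. In ko CL against wt CL 5 were higher and 10 lower (median -0.73), where 27.6% of all genes were higher and 29.3% lower. Hilpda, at 0.89, had the direction of the 5, and Vegfa, at -1.33, was among the 10. In wt fat 6 rose and 3 fell under CL (median 0.01), where 19.6% of all genes rose and 17.1% fell. Pdk1 was at 1.59, Pgk1 at 1.19 and Ndrg1 at -0.72, and Hilpda was at -0.35 and not called. Under saline 2 were higher and 3 lower in ko than in wt (median -0.04), where 7.99% of all genes were higher and 6.45% lower. The response was more positive in ko for 3 and more negative for 10 (median -0.62), where 21.8% of all genes were more positive and 23.6% more negative.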
